A study of Mus musculus with 8 samples.

Results

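Genes of granulocyte and monocyte priming were read in multipotent progenitors (MPPs) with and without the NUP98-HOXA10hd fusion (NA), in which a stretch of the nuclear pore protein NUP98 is joined to the homeodomain of HOXA10, the domain that binds DNA. The 10 genes were chosen by name: Mpo, Elane, Prtn3, Ctsg, Ms4a3, Csf1r, Csf3r, Irf8, Lyz2 and Fcgr3. Each symbol matched 1 Ensembl row, so that 10 of the 37980 gene rows of the table were taken. Polyadenylated RNA was sequenced from 4 NA MPP and 4 WT MPP libraries, named here NA1 to NA4 and WT1 to WT4. Each library came from 1000 cells of C57BL/6 bone marrow, sorted by the gate Lin-CD48-ckit+Sca1+CD135+CD150-. NA mice were NA LSL/+; Vav-Cre animals, in which Cre driven by Vav removes a stop cassette in blood cells, so all blood cells and not only MPPs carried the fusion. WT mice carried no fusion, and whether they carried Vav-Cre is not given in the sources used here, nor is the age of the donors. Nothing states that the libraries of a group came from separate mice, so p-values measure only the spread between these libraries, which may be technical.

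Granulocytes and monocytes arise from MPPs through granulocyte-monocyte progenitors. Before this commitment, MPPs already hold low amounts of transcripts from several lineages, which is called priming. Granulocyte progenitors first make the primary granule proteins, namely myeloperoxidase and serine proteases such as elastase, proteinase 3 and cathepsin G, and later the secondary granule proteins. Receptors for the growth factors G-CSF and M-CSF relay signals for granulocytes and for monocytes, and IRF8 is a transcription factor that favours monocytes and dendritic cells over neutrophils.

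Values are normalised counts, which are read counts divided by 1 size factor per library. In these libraries 1 read was worth from 0.888 to 1.18 normalised counts, and the estimated depth was 3876908 to 4916947 reads. The genes of the positive gate markers, Kit, Ly6a and Flt3, lay between 1103 and 1614 normalised counts in every library. Of these, Ly6a was lower in NA, at 1277 ± 88.5 against 1548 ± 63.3 in WT (SD, n = 4 each, limma adjusted p = 0.0257). Kit and Flt3 were not called, and the Ly6a call was lost without the fourth library of both groups (adjusted p = 0.160). The T cell genes Cd3e, Cd3d and Cd3g and the B cell gene Pax5 were listed at 0 in all 8. Cd48, whose protein the gate excludes, was lower in NA, at 17.7 ± 5.36 against 56.1 ± 21.3 in WT (SD, n = 4 each, limma adjusted p = 0.00711, and 0.0656 without the fourth library of both groups). The fourth library of each group lay close to the average of the other libraries. Among the 9000 tested genes that averaged 50 or more, its value fell inside the range of the other 3 for 66.5% of genes in NA4 and 75.4% in WT4, and for 37.9% to 50.5% in the other 6 libraries. Whether the fourth libraries hold material of the others was not tested, and calls of the priming genes and their lists are given with and without both. WT3 and WT4 held more late neutrophil transcripts than the other libraries, as described after the priming genes.

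Prtn3 and Elane lie side by side on chromosome 10 and code for serine proteases of the same granule, as does Ctsg on chromosome 14, and the table lists them at very different values, with Elane at 0 in all 8 libraries. The values cannot tell whether that 0 is a true absence of Elane RNA or a failed estimate. The sequence before the RefSeq start of these genes, and of Irf8, the transcription factor among the priming genes, is shown for reference, on the strand of the gene, cut off where a GENCODE exon lies. The Prtn3 window lies inside the longer span that GENCODE gives this gene. Capitals mark matches to 5 short motifs, searched on both strands except for the last: GAGGAA for PU.1, TTGCNNAA for C/EBP factors, TGTGGT for RUNX factors, AACGG for MYB and TATAA for a TATA box.
Prtn3, GRCm38.p6, chr10:79879417-79879613, + strand: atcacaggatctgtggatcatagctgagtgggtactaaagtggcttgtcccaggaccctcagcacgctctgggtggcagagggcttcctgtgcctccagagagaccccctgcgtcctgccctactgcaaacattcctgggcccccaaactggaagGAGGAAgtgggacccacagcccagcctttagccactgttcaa
Elane, GRCm38.p6, chr10:79886062-79886246, + strand: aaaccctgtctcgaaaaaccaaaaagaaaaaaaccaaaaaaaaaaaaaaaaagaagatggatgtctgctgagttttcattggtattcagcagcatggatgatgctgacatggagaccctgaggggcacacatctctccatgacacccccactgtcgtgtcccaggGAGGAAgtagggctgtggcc
Ctsg, GRCm38.p6, chr14:56102575-56102824, - strand: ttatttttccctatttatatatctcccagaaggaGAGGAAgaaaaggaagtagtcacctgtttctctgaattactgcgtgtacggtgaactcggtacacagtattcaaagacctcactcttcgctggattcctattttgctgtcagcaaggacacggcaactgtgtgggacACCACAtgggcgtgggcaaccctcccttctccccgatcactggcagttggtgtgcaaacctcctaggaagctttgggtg
Irf8, GRCm38.p6, chr8:120736108-120736357, + strand: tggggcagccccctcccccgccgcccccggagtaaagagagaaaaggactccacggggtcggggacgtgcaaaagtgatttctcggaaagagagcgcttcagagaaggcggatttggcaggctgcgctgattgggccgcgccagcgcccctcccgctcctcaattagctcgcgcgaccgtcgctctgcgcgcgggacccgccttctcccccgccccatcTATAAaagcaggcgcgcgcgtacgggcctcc

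The 3 protease windows each held 1 match to GAGGAA. Counted from the first base past the window, it ended 15 bases before in Elane, 37 in Prtn3 and 211 in Ctsg. The Elane and Prtn3 windows were cut at a GENCODE exon before the RefSeq start, so of the 3 only the Ctsg distance runs to that start. GAGGAA was found in 17.6% of all RefSeq mouse promoters over a window as long as that of Elane, in 18.6% over that of Prtn3 and in 23.3% over that of Ctsg. The Ctsg window also held ACCACA, the reverse complement of TGTGGT, which 14.0% of promoters held over the same length. The Irf8 window held TATAA, which 16.0% of promoters held, 27 bases before the start. No matches overlapped, and a match is a description of letters, not of a bound site.

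Of the 10 priming genes, 3 were lower in NA MPPs, none was higher, 2 did not pass the test and 5 were too low to enter it. Mpo fell by 1.50, Irf8 by 1.06 and Prtn3 by 0.41 on the log2 scale. Csf3r and Lyz2 were measured at high levels in both groups without a call. Genes were tested with limma on log2(normalised count + 1) where at least 4 of the 8 libraries reached 10, and a gene was called at an adjusted p under 0.05. Over all 11451 genes tested, 17.9% were called, 10.1% higher and 7.87% lower in NA. The 3 calls among 5 tested priming genes are not set against this share, since Mpo entered the test through its WT libraries alone. When each library was scaled to its total instead, the split over all genes moved from 1152 higher and 901 lower to 925 higher and 1314 lower (11.4% of genes lower), and the same count of 3 priming genes was called, all lower. In bulk RNA, fewer cells of a type and less RNA per cell cannot be told apart.

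**Figure D1:**
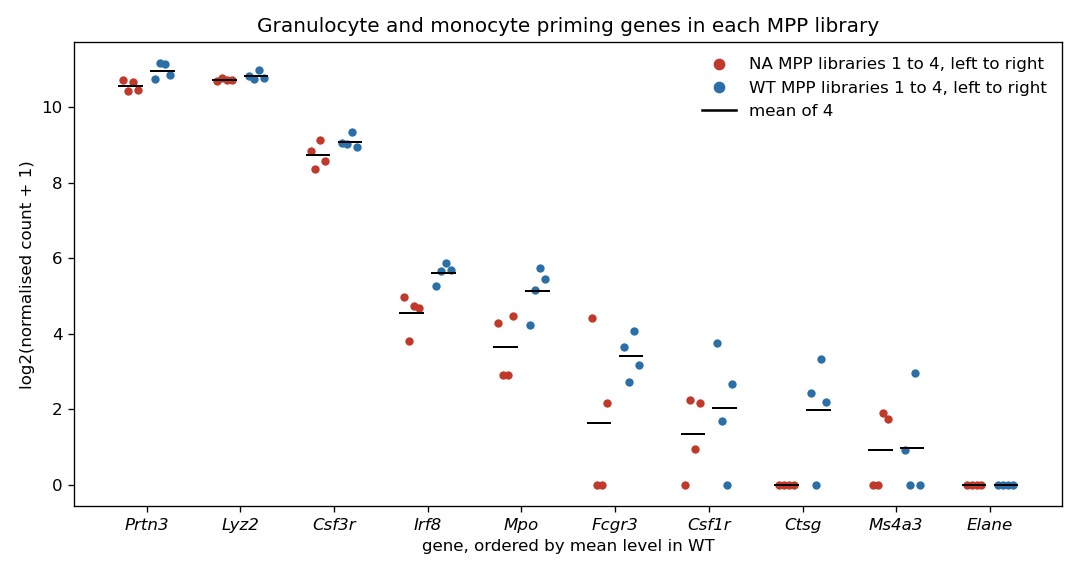
Level of each priming gene in each library, on the log2(normalised count + 1) scale, with NA in red, WT in blue and a line at the mean of 4 libraries. Prtn3, Lyz2 and Csf3r lie far above the other 7 genes in both groups, and only Prtn3 and Irf8 have NA and WT values that do not overlap.

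The order of the genes was compared per kilobase of their longest GENCODE coding transcript. In WT the level per kilobase was 1978 ± 285 for Prtn3, 1389 ± 100.3 for Lyz2 and 157 ± 19.3 for Csf3r (SD, n = 4 each), and the ranges of these 3 did not overlap with each other or with the next gene. Irf8 followed with 17.2 ± 3.03 per kilobase, Mpo with 13.4 ± 5.32, Fcgr3 with 7.63 ± 3.33, Ctsg with 4.27 ± 3.74, Ms4a3 with 1.91 ± 3.26 and Csf1r with 1.06 ± 1.15. From Irf8 downwards each gene's range overlapped with that of the next. NA libraries gave the same order for the first 6 genes, with 1486 ± 150 for Prtn3, 1290 ± 35.1 for Lyz2, 125 ± 29.0 for Csf3r, 8.31 ± 2.62 for Irf8 and 4.82 ± 2.85 for Mpo, where the ranges of Prtn3 and Lyz2 met without overlapping, at 1338.01 and 1337.86.

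Among the primary granule proteins, Mpo (chr11:87793581-87804413) codes for myeloperoxidase, which makes hypochlorous acid from hydrogen peroxide and chloride. It was read at 18.7, 6.58, 6.46 and 21.3 normalised counts in NA1 to NA4 and at 17.8, 35.1, 52.4 and 42.6 in WT1 to WT4. The groups overlapped, since WT1 lay below NA1 and NA4, while the other 3 WT libraries lay above all NA libraries. Mpo was 2.82-fold lower in NA (95% interval 1.40 to 5.72, limma adjusted p = 0.0422). It reached 10 normalised counts in all 4 WT libraries and in 2 NA libraries, so that the WT libraries alone carried it past the filter. The call was lost without NA2, NA3, WT2, WT3 or WT4, each left out in turn, with adjusted p from 0.0768 to 0.122, and with a term for depth class (adjusted p = 0.0836), the shallower class being NA4, WT2 and WT3. It was also lost without a variance trend (adjusted p = 0.0694) and without the filter on low values (adjusted p = 0.107).

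Prtn3 (chr10:79874476-79883174) codes for proteinase 3, a serine protease that cleaves matrix and antimicrobial precursors. Its values were 1677, 1371, 1634 and 1411 in NA1 to NA4 and 1711, 2291, 2260 and 1848 in WT1 to WT4. Every NA value lay below every WT value, although NA1 and WT1 were separated by less than the spread within either group. The difference was 1.33-fold (95% interval 1.13 to 1.55, limma adjusted p = 0.0181). The call was lost without NA2, NA4, WT2 or WT3, with adjusted p from 0.0511 to 0.0617, without a variance trend (adjusted p = 0.0893) and without the filter (adjusted p = 0.0610). Of the 5 tested priming genes, 2 had groups that did not overlap, Prtn3 and Irf8, where the share over all genes tested was 22.0%. Without WT2, Lyz2 joined them, as did Ctsg, which was too low to be tested, and the share over genes tested was 28.4%.

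Elane (chr10:79886247-79888215), which codes for neutrophil elastase and begins 3072 bases past the end of Prtn3, was listed at 0 in all 8 libraries. This may be a failed estimate, so it is not read as a level of Elane RNA. Ctsg (chr14:56099881-56102574), which codes for cathepsin G, was listed at 0 in all 4 NA libraries and in WT2, and at 4.44, 9.11 and 3.55 in WT1, WT3 and WT4. These are a handful of reads, and the difference of mean logs did not reach significance (exact two-sided permutation test over 70 assignments, p = 0.143). The smallest p this design allows is 0.0286. Ms4a3 (chr19:11629496-11640851), a membrane protein gene used as a mark of granulocyte-monocyte progenitors, was at 0, 0, 2.77 and 2.36 in NA1 to NA4 and at 0.888, 0, 6.83 and 0 in WT1 to WT4, with a difference of mean logs of -0.06 (exact permutation p = 1). None of these 3 genes entered the model, and no fold change is given for them.

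Among the receptors, Csf3r (chr4:126024550-126044440) codes for the G-CSF receptor, which drives granulocyte output. It was read at 455, 332, 565 and 383 in NA and at 534, 520, 646 and 494 in WT. NA3 lay above 3 of the WT libraries, and the other NA libraries lay below all of them. The difference was 1.28-fold lower in NA, with a 95% interval of 1.03 to 1.60 and an adjusted p of 0.111 in limma. It passed the test without NA3 (log2 difference -0.50, adjusted p = 0.0199). Of the 31-base words in its transcript, 24.4% also occur in transcripts of other GENCODE genes, so that its count depends on how shared reads were assigned.

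Csf1r (chr18:61100598-61132149) codes for the M-CSF receptor, the main growth signal of monocytes and macrophages. It was at 0, 3.76, 0.923 and 3.54 in NA and at 12.4, 2.26, 0 and 5.33 in WT. Only WT1 passed 10, the groups overlapped, and the difference of mean logs had an exact permutation p of 0.543. Fcgr3 (chr1:171051174-171064935) codes for the activating antibody receptor CD16, one of the proteins that define granulocyte-monocyte progenitors by flow cytometry. It was at 20.5, 0, 0 and 3.54 in NA and at 11.5, 5.66, 15.9 and 7.99 in WT, so NA1 held the highest value of all 8 and the other NA libraries the lowest 3 (exact permutation p = 0.200). It shares 17.7% of its 31-base words with its inhibitory relative Fcgr2b.

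The transcription factor gene Irf8 (chr8:120736358-120756694) was read at 30.8, 13.2, 25.9 and 24.8 in NA and at 37.3, 49.8, 58.1 and 50.6 in WT. All NA libraries lay below all WT libraries. Irf8 was 2.09-fold lower in NA, with a 95% interval of 1.30 to 3.35 (limma adjusted p = 0.0335). The call was lost without NA2, NA4, WT2, WT3 or WT4, with adjusted p from 0.0635 to 0.0973, with the depth class term (adjusted p = 0.0683) and without the filter (adjusted p = 0.0688).

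Lyz2 (chr10:117277331-117282321) codes for lysozyme, which digests bacterial cell walls and is made by most phagocytes. Its values were 1652, 1761, 1698 and 1678 in NA and 1807, 1719, 2019 and 1768 in WT. NA2 lay above WT2, and the other NA libraries lay below all WT libraries. The log2 difference was -0.10 with a 95% interval of -0.27 to 0.06 (limma adjusted p = 0.364). Its near copy Lyz1, which shares 32.8% of the 31-base words of Lyz2, was listed at 0 in all 8 libraries.

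No priming gene was called without the fourth library of both groups. The log2 difference was then -1.67 for Mpo (adjusted p = 0.135), -1.08 for Irf8 (adjusted p = 0.182) and -0.41 for Prtn3 (adjusted p = 0.0867), with 1.30% of 11117 genes called lower. None was called without NA2, WT2 or WT3 either, where 5.76%, 6.23% and 5.88% of genes were called lower, and 1 was called without NA4 and 1 without WT4, where 3.98% and 4.22% were. All 5 tested genes had a negative difference in each of the alternative settings run.

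**Figure D2:**
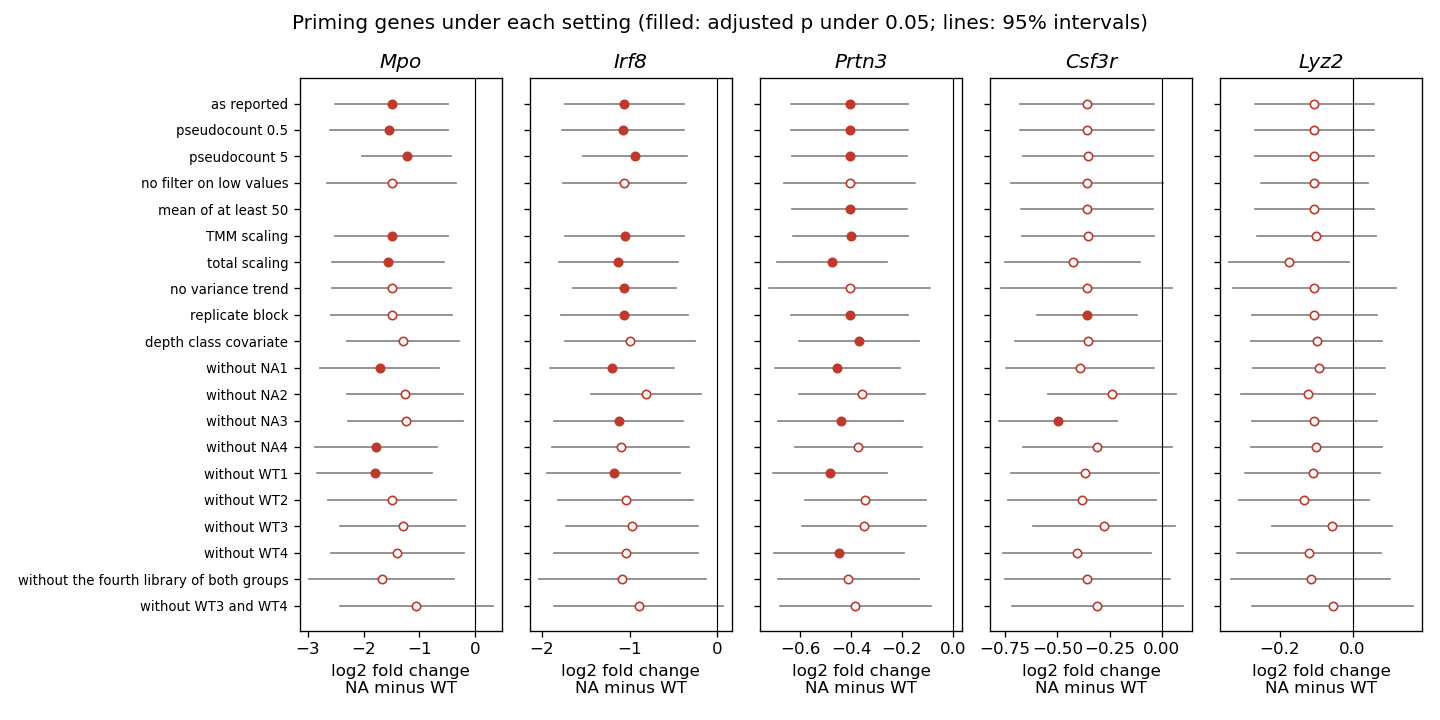
Difference of the 5 tested priming genes (log2 fold change, NA minus WT, with its own scale for each gene) as reported and in each alternative setting, with 95% intervals and filled points at an adjusted p under 0.05. All points lie below 0, and Mpo, Irf8 and Prtn3 are called in some settings only. Mpo and Irf8 have no value where a mean of at least 50 was required.

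Late neutrophil transcripts were counted beside these values. The list held 15 genes of secondary granules and mature neutrophils, and its summed level was 33.6 to 49.9 normalised counts in NA and 57.7, 36.2, 368 and 136 in WT1 to WT4. S100a9, which codes for a subunit of calprotectin, made up the largest part in WT3 and WT4, with 158 in WT3 and 47.9 in WT4 against 0 to 18.5 in the other 6 libraries. Ngp was at 53.5, S100a8 at 64.9 and Camp at 39.8 in WT3. The defining late genes Ly6g, Retnlg and Mmp8 were listed at 0 in all 8. Only 3 of the 15 were tested and none was called, with log2 differences of -2.90 for S100a9 (adjusted p = 0.0545) and -0.26 for Itgam (adjusted p = 0.655), and S100a9 passed without WT2 (adjusted p = 0.0333).

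WT3 also held the highest of the 8 values for 6 of the 9 priming genes that were above 0 anywhere, among them Mpo, Irf8, Csf3r and Lyz2. Without WT3 and WT4, a setting chosen after seeing the data, no priming gene was called, and 1.85% of genes were called lower. The log2 difference was -1.05 for Mpo (adjusted p = 0.343), -0.90 for Irf8 (adjusted p = 0.241) and -0.38 for Prtn3 (adjusted p = 0.115). The part of these late transcripts in the differences was not tested. Macrophage markers moved in the same direction, with a summed level over 10 genes of 55.1 to 90.5 in NA and 132 to 173 in WT. Of the 4 tested, Slc40a1 was called lower and none higher, and its call was lost without the fourth library of both groups (adjusted p = 0.0942) and without WT3 and WT4 (adjusted p = 0.202). All 4 reached 10 in every WT library and in fewer NA libraries, so that the WT libraries alone carried them past the filter. Over all genes tested, 7.87% were called lower and 10.1% higher, beside this count and those of the marker lists that follow. Timd4 and Cd5l were listed at 0 in all NA libraries, while Mertk went the other way, at 18.7, 0, 11.1 and 4.72 in NA and 0, 0, 1.14 and 0 in WT. Erythroid markers summed to 40.6 to 77.1 in NA and 147 to 315 in WT, and of these Hbb-bt, the 1 gene tested, was called lower. Lymphoid priming genes summed to 295 to 346 in NA and 598 to 684 in WT, and both tested genes, Dntt and Satb1, were called lower. Dendritic cell markers summed to 656 to 1024 in NA and 496 to 584 in WT, with H2-Aa and H2-Ab1 called higher among 4 tested. Most of this sum came from Cd74, H2-Aa and H2-Ab1, and the other markers did not move together. Clec9a was at 16.6 ± 8.55 in NA and 3.17 ± 3.06 in WT, and Siglech at 0.47 ± 0.94 and 3.45 ± 4.83. Bst2 was at 46.6 ± 9.99 and 51.9 ± 24.7, not called. H2-Aa lost its call without NA4 and WT4 (adjusted p = 0.0732) and without WT3 and WT4 (adjusted p = 0.0826), while Hbb-bt, Dntt, Satb1 and H2-Ab1 were called in both settings. No tested gene of the mast cell and basophil, megakaryocyte, B cell or T cell lists was called. The part of RNA from other cell types in the priming gene differences was not tested.

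**Figure D3:**
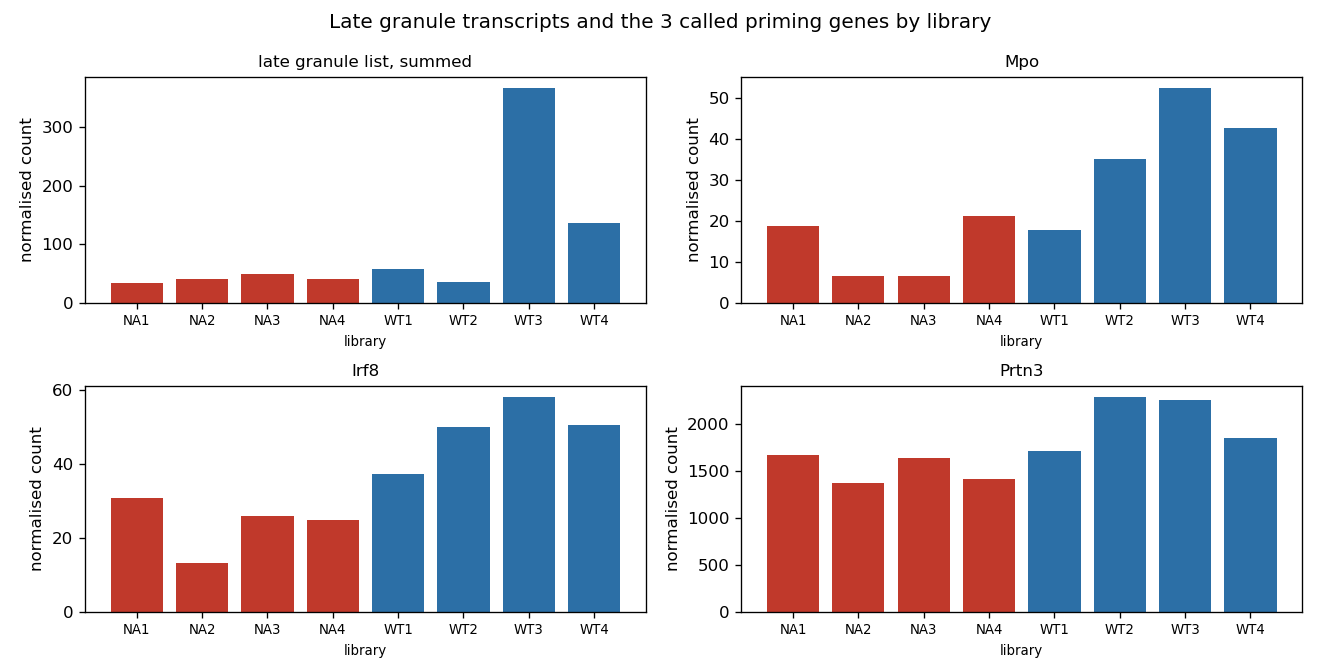
Normalised counts in each library (NA in red, WT in blue) of 15 late granule genes summed, and of Mpo, Irf8 and Prtn3. The late granule sum reaches 368 in WT3 and 136 in WT4 and stays at or below 57.7 in the other 6 libraries. In each of the 3 priming genes, WT2, WT3 and WT4 lie above all NA libraries.

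Genes that make, carry or accompany the priming genes were described by 6 further lists of 73 genes, of which 44 were tested. Of these, 7 (15.9%) were higher and 13 (29.5%) lower, where 10.1% and 7.87% of all genes tested were. The same shares over all genes stand beside the counts of each list below. The lists were chosen with earlier results of these data known. Clec12a, Mpeg1 and Cd68 reached 10 in all WT but not in all NA libraries, so that the WT libraries alone carried them past the filter. Klf4 reached 10 in all NA but not in all WT libraries. The counts of calls are therefore not read as a result about the lists. Among genes of granule assembly and protease processing, 10 of 12 were tested, 1 was higher and 3 were lower, with a median log2 difference of -0.07 beside -0.01 over all genes tested. Ctsc, which activates the granule proteases, was at 483 ± 70.2 in NA and 430 ± 31.1 in WT, and serglycin (Srgn), the proteoglycan that packs them, at 6714 ± 320 and 5826 ± 735, both without a call. Canx, a folding chaperone of the endoplasmic reticulum, rose from 2432 ± 177 to 2904 ± 139 (log2 difference 0.26, adjusted p = 0.0322). That call was lost without any of 6 of the libraries (NA1, NA2, NA4, WT1, WT2 or WT4, adjusted p from 0.0560 to 0.0950), under total scaling (0.0814), without a variance trend (0.130), without the filter (0.0553), and without the fourth library of both groups (0.171) or WT3 and WT4 (0.0752). The lysosome and granule genes Cd63, Gusb and Man2b1 fell by 0.39, 0.43 and 0.48 with adjusted p of 0.00701, 0.0132 and 0.0112, and Gusb lost its call without WT4 (adjusted p = 0.0598). All 3 lost their calls without the fourth library of both groups (adjusted p of 0.0755, 0.132 and 0.139), and Cd63 and Gusb also without WT3 and WT4 (0.0836 and 0.123).

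Of 18 genes of granulocyte-monocyte progenitors and monocytes, 11 were tested, 6 were lower and none was higher, with a median of -0.39. Plac8, which is abundant in early myeloid progenitors, was at 790, 793, 812 and 803 in NA and at 1628, 1989, 1727 and 1847 in WT, with no overlap. Its log2 difference was -1.16 ± 0.08 (SE, limma adjusted p = 7.0e-07), and it was called in all 19 alternative settings. Clec12a, an inhibitory lectin receptor of myeloid cells, was between 2.77 and 35.5 in NA and between 39.1 and 70.2 in WT. It reached 10 in all 4 WT and in 2 NA libraries, so that the WT libraries alone carried it past the filter. It fell by 2.06 (adjusted p = 0.0187), and the call was lost without WT2 (adjusted p = 0.0511), without the filter (0.0756) and without a variance trend (0.0587). Tyrobp, the signalling adaptor DAP12, fell from 101 ± 36.5 to 47.1 ± 20.6, a log2 difference of -1.10 (adjusted p = 0.0292), with overlapping groups and a call lost without NA1, NA4, WT2 or WT3 (adjusted p from 0.0643 to 0.0856), without the filter (0.0884), without a variance trend (0.0725) and with the depth class term (0.0597). When the fourth library of both groups was left out, 2 of the list were called, Plac8 and Emb, both lower, where 1.30% of all genes were. Without WT3 and WT4 it was Plac8 alone, where 1.85% of all genes were called lower.

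Of 11 ligands, receptors and Fc partners, 6 were tested and 1 was called, with a median of -0.08. Fcgr2b, the inhibitory Fc receptor, was at 58.8, 79.0, 25.9 and 57.9 in NA and at 24.9, 14.7, 19.4 and 16.9 in WT, and rose by 1.42 (adjusted p = 0.0146). NA3 lay close to WT1, and the call was lost without NA2 or NA4 (adjusted p of 0.0538 and 0.0579), without the fourth library of both groups (0.137) and without WT3 and WT4 (0.0916). The ligand genes Csf3 and Il34 were listed at 0 in all 8 libraries. The GM-CSF receptor chain gene Csf2ra was at 179 ± 64.4 in NA and 236 ± 17.2 in WT, not called.

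Of 11 transcription factors of these lineages, 9 were tested, 5 were higher and 1 was lower, with a median of 0.50. Cebpa, which starts granulocyte commitment, was at 41.1, 32.9, 14.8 and 24.8 in NA and at 56.8, 66.8, 43.3 and 68.4 in WT, without overlap, and fell by 1.09 (adjusted p = 0.0324). Its call was lost without NA3, NA4, WT1, WT2 or WT4 (adjusted p from 0.0599 to 0.105) and without the filter (0.0777). Cebpb, the related factor used when granulocyte output is raised in an emergency, rose from 44.1 ± 28.6 to 112 ± 44.9, a log2 difference of 1.54 (adjusted p = 0.0352), with overlapping groups. Its call was lost without NA2, NA3, NA4, WT1, WT3 or WT4 (adjusted p from 0.0515 to 0.0881), without the filter (0.122) and without a variance trend (0.107), and the difference was 0.99 without WT1, where Cebpb was lowest.

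Gfi1, a repressor that supports neutrophil over monocyte fate, was at 494, 497, 497 and 533 in NA and at 302, 360, 332 and 330 in WT. It rose by 0.61 ± 0.10 (SE, limma adjusted p = 0.00102) and was called in all 19 alternative settings. Zeb2 rose by 0.80 (adjusted p = 0.0104), a call that just missed the threshold without NA4. Spi1, which codes for PU.1, was at 146 ± 25.5 in NA and 167 ± 43.8 in WT, and Runx1 at 504 ± 60.8 and 458 ± 43.1, neither called. With the fourth library of both groups left out, Gfi1 and Myb were called, both higher, where 3.33% of all genes were. Without WT3 and WT4 Zeb2 was called higher as well, where 570 of 11162 genes were.

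Of 6 subunits of the phagocyte oxidase, which supplies the hydrogen peroxide that myeloperoxidase uses, 5 were tested, 3 were lower and none was higher, with a median of -0.43. Ncf1, the organizer subunit p47phox, was at 51.3, 53.6, 40.6 and 37.8 in NA and at 132, 120, 123 and 142 in WT. It fell by 1.49 ± 0.20 (SE, limma adjusted p = 0.000209) and was called in all 19 alternative settings. Cyba fell by 0.72 (adjusted p = 0.0373), a call lost without NA2, NA4, WT1, WT2 or WT4 (adjusted p from 0.0785 to 0.114), without the filter (0.0795), without a variance trend (0.0644) and with the depth class term (0.0522). Rac2 fell by 0.32 (adjusted p = 0.0134), a call lost without a variance trend (adjusted p = 0.0819). The catalytic subunit gene Cybb was listed at 0 in 6 of the 8 libraries. Without the fourth libraries only Ncf1 of this list was called, where 1.30% of all genes were called lower. Without WT3 and WT4 it was Ncf1 and Cyba, where 1.85% were.

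**Figure D4:**
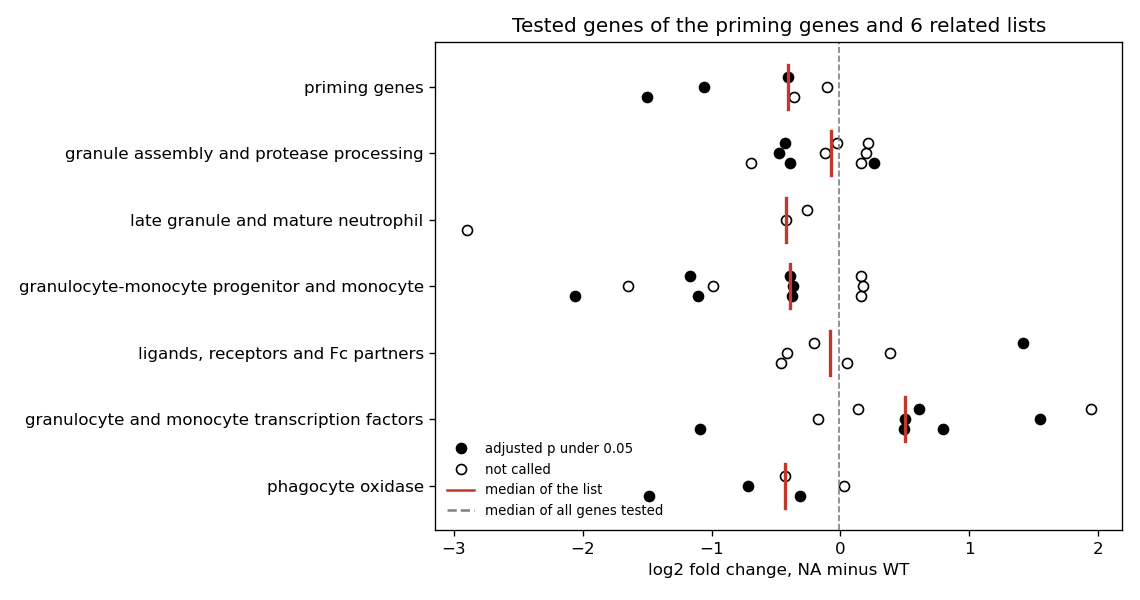
Log2 fold change (NA minus WT) of each tested gene of the priming genes and of 6 related lists, with filled points at an adjusted p under 0.05, a red line at the list's median and a dashed line at the median of all genes. Most points of the progenitor and oxidase lists lie left of 0, and most of the transcription factors lie right of 0.

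**Figure D5:**
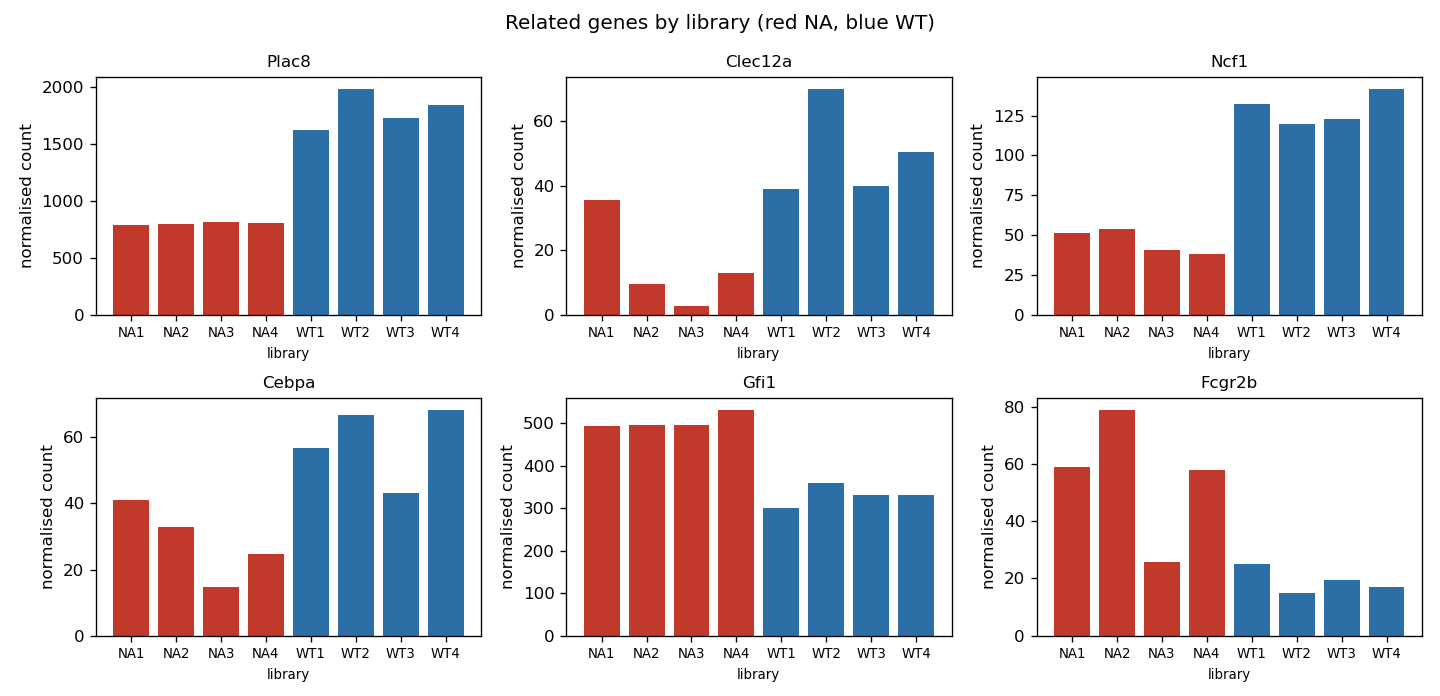
Normalised counts in each library (NA in red, WT in blue) of 6 genes from the related lists, each on its own scale. Plac8, Ncf1 and Gfi1 separate the groups widely, Cebpa and Clec12a are separated by a small gap, and Fcgr2b in NA3 lies just above WT1.

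The genes whose values followed those of Mpo most closely within the groups were found by Pearson r of log2(normalised count + 1) over the 8 libraries, after each group's mean was subtracted and among genes that averaged 50 or more. They were Tomm70a (r = 0.967), Cfap36 (0.961), Vkorc1l1 (0.953), Gypc (0.947) and Exoc2 (0.946). The highest r of about 9000 genes over 8 values can be high for unrelated genes too, and no test of r was made. These values are descriptions over 8 libraries made by the same method, whose estimated depth differed. The part of depth in them was not tested. Exoc2 alone of the 5 was called between the groups, lower in NA (log2 difference -0.42, adjusted p = 0.00632). Among the priming genes, r with Mpo was 0.697 for Irf8, 0.380 for Prtn3, 0.017 for Lyz2 and 0.014 for Csf3r.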

How the data were processed

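Libraries of 1000 sorted MPPs were made by the authors from amplified cDNA with a tagmentation kit and sequenced on an Illumina NextSeq instrument. Per the labels, bcl2fastq, RSEM and DESeq2 were used with mm10, with no versions given. The annotation and strand setting are not given in the sources used here. The name of the deposited table speaks of raw counts. Its values are a normalised signal, namely RSEM estimates after division by a size factor for each library, as done by the authors. Low values were whole multiples of the value of 1 read, within 0.1 read, for 98.5% to 99.1% of values, from which depth was estimated. Amplified cDNA carries no molecular identifiers, so these depths count reads and not molecules.

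Symbols, gene coordinates and coding transcript lengths came from GENCODE M21 (GRCm38, the assembly of mm10) and matched 32916 of 37980 rows. Upstream sequences came from RefSeq (GRCm38.p6), where 9 of the 10 priming genes matched a promoter. The groups were compared in limma 3.58.1 (R 4.3.3) after log2(value + 1), with a mean-variance trend and no covariates, on genes with at least 10 in at least 4 of the 8 libraries. P-values were adjusted by Benjamini-Hochberg over all 11451 genes, at a threshold of 0.05. Fold changes are on that log scale, which understates changes of low genes. Members below the filter were given an exact permutation test. On simulated data of 11462 genes, 77% of 2-fold and 100% of 4-fold changes were recovered, and 6.35% of calls were unchanged genes. Changes were given only to genes that averaged 50 or more, so no gene as low as Mpo or Irf8 was among them. The spread between simulated libraries was a fixed setting and was not taken from these data. These shares are therefore not read as the power to detect changes in such genes.

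The priming genes, lists and tests were chosen with earlier results of these data known. Named were all 10 priming genes, up to 3 called genes with the largest rise and fall of each list (or the extremes where none was called) and the 5 genes most like Mpo. Other genes given for comparison were named after their values were seen. Alternatives were other pseudocounts, filters, scalings and variance models, a replicate block, a depth class term and fits without libraries.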

Additional observations from a re-analysis of the deposited data

Results flagged for a closer look

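In 4 libraries of 1 group, a library that stood apart from the other 3 by Dixon's criterion was looked for in the 10 priming genes and in the summed level of each related list, 29 groups of values in all, where chance gives about 1.45. Ms4a3 stood out in WT3, at 6.83 normalised counts against 0 to 0.888 in the other WT libraries. The summed ligands, receptors and Fc partners stood out in NA1, at 1094 against 748 to 807 in the other NA libraries. Both are given as values, and neither cause was tested.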

How the results depend on the processing

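The count of 3 called priming genes was 3 with a pseudocount of 0.5 or 5, with TMM or total scaling and with the replicate block. It was 0 without a filter on low values, 1 where a mean of at least 50 was required, 1 without a variance trend, 1 with a depth class term, 0 without the fourth library of both groups, 0 without WT3 and WT4, and 0 to 3 when 1 library was left out. Requiring a mean of at least 50 removed Mpo and Irf8 from the test by construction, and for the others the cause was not tested. The 20 calls in the related lists became 13 without a filter, 11 without a variance trend, 5 without the fourth libraries, 7 without WT3 and WT4, and 10 to 19 when 1 library was left out. With total scaling they were 20, of which 5 were higher and 15 lower. The number of priming genes without overlap, counted over tested and untested ones, was 2, and 2 to 4 when 1 library was left out. Over all genes tested it was 2521 of 11451 (22.0%), and from 2656 of 11296 to 3427 of 11300 when 1 library was left out. The 4 came without WT2, where 28.4% of all genes tested did not overlap. The count is therefore not read as a result about the priming genes. Over all genes, 2053 calls became 1420 without a variance trend, 515 without the fourth libraries, 777 without WT3 and WT4, and 1106 to 2141 when 1 library was left out, the lowest without NA4. None of the 20 called genes of the related lists changed sign in any of the settings run.

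Replicate numbers are shared by the groups, but deviations of same-numbered libraries correlated at 0.087, 0.027, 0.013 and 0.158, so the numbers were not taken as pairs. With the replicate block 2004 genes were called in place of 2053, 3 priming genes in place of 3 and 21 related genes in place of 20. Mpo (adjusted p = 0.0582) and Cyba (adjusted p = 0.0547) lost their calls and Csf3r (adjusted p = 0.0453) and S100a9 (adjusted p = 0.00340) gained one. Count models on recovered reads were not run, because fractional estimates did not come out as whole reads. Ctsg, Ms4a3, Csf1r and Fcgr3 stayed under 10 in most libraries, and the part of depth in this was not tested. The 0 of Elane may be a failed estimate.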
